A study of Homo sapiens with 2 samples.

Results

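Genes for molecular chaperones and for the entry of proteins into the secretory pathway carried deletion sites of the splicing factor SF3A1 in 16 of 42 cases (38.1%), beside 10.1% of all nuclear protein-coding genes. The genes were chosen with results of these data known, so the difference between these shares was not tested. They were 14 cytosolic chaperones, 3 mitochondrial chaperones, 13 folding factors and 11 translocation factors of the endoplasmic reticulum (ER), and the transcription factor XBP1. A site belonged to a gene when its position fell inside the gene's RefSeq body, introns included, on the GRCh38 assembly. The 16 genes held 25 of the 2960 listed sites, or 0.845%.

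SF3A1 is a subunit of the SF3A complex, which joins the U2 small nuclear ribonucleoprotein as it settles on the branch site of an intron. It was immunoprecipitated with an anti-SF3A1 antibody from C4-2B cells, a prostate cancer epithelial line, in a derivative made ready for CRISPR interference and given no further treatment that the labels name. The 2 libraries form 1 group, and there is no control group among the samples. Cells were collected 48 h after seeding and irradiated with 400 mJ/cm2 of ultraviolet light at 254 nm, which links protein to RNA where they touch.

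The data are 1 list pooled over both libraries. Each line gives a position, the number of tags (sequenced RNA fragments) over it and the number of those tags that lack the base there. Reverse transcriptase can skip a base that still carries a crosslinked peptide, so such deletions are used to mark contact. The deleted share below is the percentage of tags over a site with the deletion. Sites in the whole list had a median of 54 tags (interquartile range 29 to 95.25), and no site had fewer than 13 deleted tags. KLK3, the gene of prostate-specific antigen, held 4 sites. A list of deletion sites does not measure expression, however, and is a weak check of the cell line. With no control group and no genome sequence used here, whether a given deletion came from a crosslink was not tested. Pooling leaves no spread between replicates. Every interval given is an exact 95% Clopper-Pearson interval on the pooled tags and covers counting error only, under the assumption that tags are independent molecules.

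Chaperones bind unfolded stretches of protein and let them go in cycles driven by ATP. In the cytosol the HSP70 proteins act early, with J-domain partners that bring substrates and exchange factors that reset them, and HSP90 acts later on proteins such as kinases and steroid hormone receptors, the androgen receptor of prostate cells among them. Secretory and membrane proteins instead pass through the SEC61 channel into the ER, lose their signal peptide, and fold with the help of ER relatives of HSP70 and HSP90, protein disulfide isomerases and the sugar-reading calnexin cycle.

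Over all nuclear protein-coding genes, 2014 of 19866 held a site. Of the 16 member genes with a site, 11 held 1 site, DNAJC3 and HSP90AA1 held 2, GANAB and HSPH1 held 3, and HSPA9 held 4. The 5 genes with 2 or more sites made up 11.9% of the list, while 2.09% of protein-coding genes held that many. The genes were chosen with results of these data known and RNA abundance was not measured, so the part of abundance in these shares was not tested.

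Longer gene bodies held sites more often across the genome, so the members were also read by length. Their bodies had a median length of 17.4 kb, and all protein-coding genes had a median of 24.5 kb. Under 10 kb, 3 of 13 members had a site (HSP90AB1, HSPA5 and HSPA8), where 3.08% of protein-coding genes of that length did. Between 10 and 30 kb, 10 of 19 had one, against 7.2% of protein-coding genes. Between 30 and 100 kb, HSP90AA1 and DNAJC10 were the 2 of 9 members with a site, against 13.6%. The single member of 100 kb or more, DNAJC3, had a site, against 21% of such genes.

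**Figure D1:**
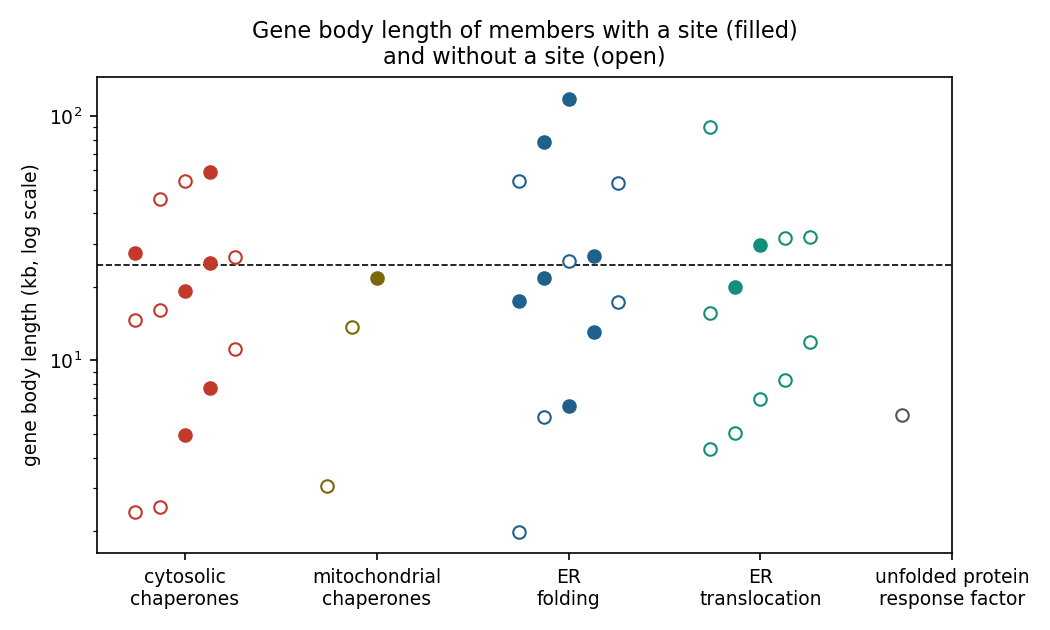
Gene body length (kb, log scale) of the 42 genes by class, with filled points for genes that hold a site and open points for genes that do not; the dashed line is the median of all protein-coding genes, 24.5 kb. Filled and open points overlap in length in each class that has several of both, and HSPA8, with a body of 4.97 kb, is the shortest gene with a site.

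Cytosolic chaperones and ER genes were then set side by side in genes hit, coverage and deleted share. A site was present in 6 of 14 cytosolic chaperone genes (42.9%) and in 9 of 24 ER genes (37.5%). Within the ER, 7 of 13 folding genes (53.8%) and 2 of 11 translocation genes (18.2%) had a site. Per length of gene body, the cytosolic class held 28.4 sites per Mb, ER folding genes 22.7 and ER translocation genes 7.81, against 1.99 over all protein-coding genes. These are counts over short lists of genes, which are not replicates, so no test is attached to them. The densities per Mb were not matched for body length. Median bodies were 17.7 kb for cytosolic, 21.8 kb for ER folding and 15.6 kb for ER translocation genes, against 24.5 kb over all protein-coding genes.

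Median coverage was close in both classes, and the best covered site was cytosolic. The 9 cytosolic sites had a median of 86 tags (range 15 to 1060) and the 12 ER sites a median of 86.5 (range 23 to 164); the median over the 2571 sites in protein-coding genes was 52. At least 100 tags lay over 10 of the 25 member sites (40%), against 21.9% of sites in protein-coding genes. Only 1 member site exceeded 164 tags, the deeper site of HSP90AA1, which ranked 11 by tags among all sites in protein-coding genes.

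Among the listed member sites, only those of the cytosolic HSP90 genes had a deleted share below 25%. Since no site had fewer than 13 deleted tags, thinly covered sites could not show such low shares. The lowest listable share was 92.9% at the HSPA9 site of 14 tags, 86.7% at the STIP1 site and 40.6% at the HSPA5 site. All 12 ER sites had shares of at least 99.0%, and 10 of them had the deletion in every tag. Complete deletion was usual in the list: 1988 of the 2571 sites in protein-coding genes (77.3%) and 19 of the 25 member sites (76%) had it. Of the 9 cytosolic sites, 6 were complete and 3 were below 25%; those 3 belong to HSP90AA1 and HSP90AB1. Summed over sites, 515 of 1637 tags were deleted in the cytosolic class (31.5%, interval 29.2 to 33.8) and 1096 of 1098 in the ER class (99.8%, interval 99.3 to 99.98). That contrast rests on the HSP90 genes: their 3 sites had 145 deleted tags of 1267 (11.4%, interval 9.74 to 13.3), and the 6 sites of the other 4 cytosolic genes had 370 of 370 (interval 99.0 to 100). Without the deepest HSP90AA1 site alone, the cytosolic share was 70.9%. The median share over sites was 100% in both the cytosolic and the ER class. Intervals on summed tags do not cover the spread between sites or genes.

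**Figure D2:**
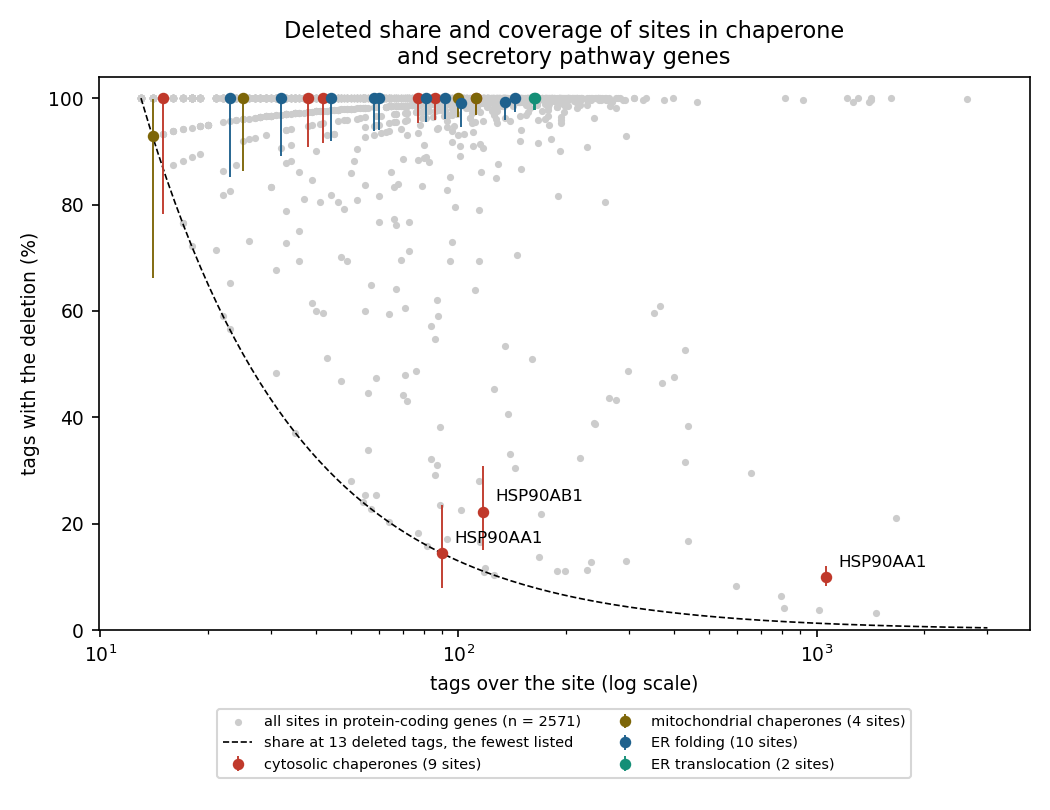
Deleted share (percent of tags) against tags over the site (log scale) for the 25 member sites, with bars for exact 95% intervals, and in grey for the 2571 sites in protein-coding genes; the dashed line is the share that 13 deleted tags give, the fewest at any listed site. The 3 HSP90AA1 and HSP90AB1 sites lie between 10.0% and 22.2%, and every other member site lies above 92%.

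HSP90AA1 encodes the stress-inducible form of cytosolic HSP90. Its body lies on the minus strand of chromosome 14 from 102080742 to 102139749, with 2 annotated starts, the outer one at the end of the body and an inner one. The site at 102084942 had 106 deleted tags of 1060 (10.0%, interval 8.26 to 11.97). The site at 102086496 had 13 of 90 (14.4%, interval 7.92 to 23.4), and so stood exactly at the fewest deleted tags that any listed site has. The intervals of the 2 sites overlap. They lay 1554 nt apart and downstream of the inner start, by 548 nt for the shallower site and 2102 nt for the deeper one. The part of the 59.0 kb body upstream of the inner start held no site.

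HSP90AB1 encodes the constitutive cytosolic HSP90. Its 7.69 kb body lies on the plus strand of chromosome 6 from 44246194 to 44253883. The 1 site, at 44250322, had 26 deleted tags of 117 (22.2%, interval 15.1 to 30.8). This interval lies above that of the deeper HSP90AA1 site and overlaps that of the shallower one. Among the 686 sites in protein-coding genes with 90 or more tags, the coverage that all 3 HSP90 sites reach, 23 (3.35%) had a share below 25%. Over all 2571 such sites it was 29 (1.13%), but at low coverage the minimum of 13 deleted tags keeps shares this low out of the list. Both limits, 90 tags and 25%, follow the values of the 3 HSP90 sites, which are counted in the 23 and the 29. How rare such sites are was therefore not tested. A share under 90% was found in 0.73% of protein-coding genes and in 2 of the 42 members, genes without a site included. Counted by site, it was found at 3 of the 25 member sites (12%) and at 150 of the 2571 sites in protein-coding genes (5.83%). Among the 686 with 90 or more tags it was 60 (8.75%). Among the 12 protein-coding sites with 1000 or more tags, 4 had a share under 90%, the HSP90AA1 site being 1 of them.

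The third HSP90 gene, HSP90B1, encodes the ER form (GRP94) and did not share this pattern. Its site at 103931683 on the plus strand of chromosome 12 (body 103930410 to 103947926) had 101 deleted tags of 102 (99.0%, interval 94.7 to 99.98). The interval does not meet those of the HSP90AA1 and HSP90AB1 sites, while the coverage of 102 tags is between those of the shallower HSP90AA1 site and the HSP90AB1 site. The site lay 1273 nt from the start of the gene, in the first 7.27% of the body.

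Among the HSP70 genes, HSPA8, HSPA5 and HSPA9 held sites, which encode a cytosolic, an ER and a mitochondrial form. HSPA8, the constitutive cytosolic HSP70, had 1 site at 123057879 on the minus strand of chromosome 11 (body 123057489 to 123062462) with 112 of 112 tags deleted (interval 96.8 to 100). It lay 390 nt from the 3′ end of the body and 198 nt from SNORD14E, the nearest of 3 small nucleolar RNA (snoRNA) genes inside HSPA8; none of the 3 snoRNA genes held a site. HSPA5 (BiP), the ER HSP70 that holds the entering chain, had 32 of 32 tags deleted (interval 89.1 to 100) at 125236248 on chromosome 9, 1395 nt from the 3′ end of its 6.49 kb body. The stress-inducible copies HSPA1A and HSPA1B, on chromosome 6, had no site, and neither did HSPA4, an HSP110 relative with a body of 54.4 kb. HSPA1A and HSPA1B are near-identical, and the sources used here do not say how tags that match both were treated.

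HSPA9, the mitochondrial HSP70 that pulls proteins through the inner membrane, held the most sites of any member. Its body lies on the minus strand of chromosome 5 from 138553756 to 138575401. In the 5′ to 3′ direction the sites had 13 deleted tags of 14 (92.9%, interval 66.1 to 99.8), 112 of 112, 100 of 100 and 25 of 25. The second of them, at 138561081, fell inside the snoRNA gene SNORD63 (138561043 to 138561110), at base 30 of 68. It cannot be told apart from a site in the snoRNA itself. The next, at 138560149, lay 932 nt further on, 894 nt outside SNORD63 and 1108 nt from SNORD63B, the other snoRNA gene in HSPA9. The first site, at 138574746, also fell in the body of LOC105379193, whose annotated start is on the plus strand, whereas the site is on the minus strand, that of HSPA9. The other mitochondrial members, HSPD1 and HSPE1, which form the HSP60 and HSP10 chamber, held no site.

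The partners of HSP70 and HSP90 were hit unevenly. HSPH1 (HSP110), which exchanges nucleotide on HSP70, held 3 sites on chromosome 13 with 86 of 86, 38 of 38 and 42 of 42 tags deleted, in 5′ to 3′ order. They lay 4476 and 4627 nt apart, all in the 5′ part of the 27.4 kb body, between 11.0% and 44.2% of its length. STIP1 (HOP), which bridges HSP70 and HSP90, had 15 of 15 tags deleted (interval 78.2 to 100), the thinnest cytosolic site, 1370 nt from the 5′ end of its body on chromosome 11. PTGES3 (p23), a cochaperone of HSP90, had 77 of 77 (interval 95.3 to 100), 1819 nt from the 3′ end of its body on chromosome 12. No site fell in the J-domain partners DNAJA1 and DNAJB1, in the exchange factor BAG3, or in TCP1 and CCT2, subunits of the TRiC chaperonin. The list holds only positions past the authors' threshold, so a gene without a site may still have been covered by tags.

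In the ER, the helpers of BiP with a site were DNAJC3, DNAJC10 and HYOU1, while SDF2L1, which associates with ER J-domain proteins, had none. DNAJC3, a J-domain cochaperone, has the longest body of the list at 118 kb on chromosome 13, and its 2 sites, 12511 nt apart, had 23 of 23 and 144 of 144 tags deleted. DNAJC10 (ERdj5), a J-domain reductase that opens disulfide bonds, had 58 of 58 (interval 93.8 to 100) in a 78.2 kb body on chromosome 2. HYOU1, an ER relative of HSP110, had 44 of 44 (interval 92.0 to 100) in a 13.02 kb body on chromosome 11. All 4 sites were complete, and none lay in the first or last 30% of its gene body.

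Of the glycoprotein folding genes and disulfide isomerases, GANAB and PDIA3 held sites. GANAB, the catalytic subunit of glucosidase II that trims glucose from new glycans, held 3 sites on the minus strand of chromosome 11 (body 62624829 to 62646613). They had 81 of 81, 92 of 92 and 134 of 135 tags deleted in 5′ to 3′ order, the first 681 nt from the 5′ end and the last 1059 nt from the 3′ end. PDIA3, the disulfide isomerase that works with calnexin and calreticulin, had 60 of 60 (interval 94.0 to 100), 1759 nt from the plus-strand end of its body on chromosome 15. The lectins CALR and CANX had no site, nor did the disulfide isomerases PDIA4, PDIA6 and P4HB, or SDF2L1, a factor that associates with ER J-domain proteins. Of these 6 genes without a site, CANX (53.0 kb) and PDIA6 (54.3 kb) are longer than most members with one.

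Of the translocation genes, SEC61A1 and SPCS2 held 1 site each, the best covered of the ER class. SEC61A1, the channel-forming subunit, had 163 of 163 tags deleted (interval 97.8 to 100) at 128065558 on chromosome 3. The annotated body of RUVBL1 also covers this position, but RUVBL1 starts on the minus strand and the site is on the plus strand, that of SEC61A1. SPCS2, a subunit of signal peptidase, had 164 of 164 (interval 97.8 to 100) at 74958526 on chromosome 11. No site fell in the small channel subunits SEC61B and SEC61G, in SEC62 and SEC63, which assist transport after synthesis, in the 4 subunits SSR1 to SSR4 of the translocon-associated complex, or in SPCS1. SEC63, at 90.5 kb, is the longest translocation gene. XBP1, whose mRNA is spliced outside the nucleus when unfolded protein builds up in the ER, had no site.

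**Figure D3:**
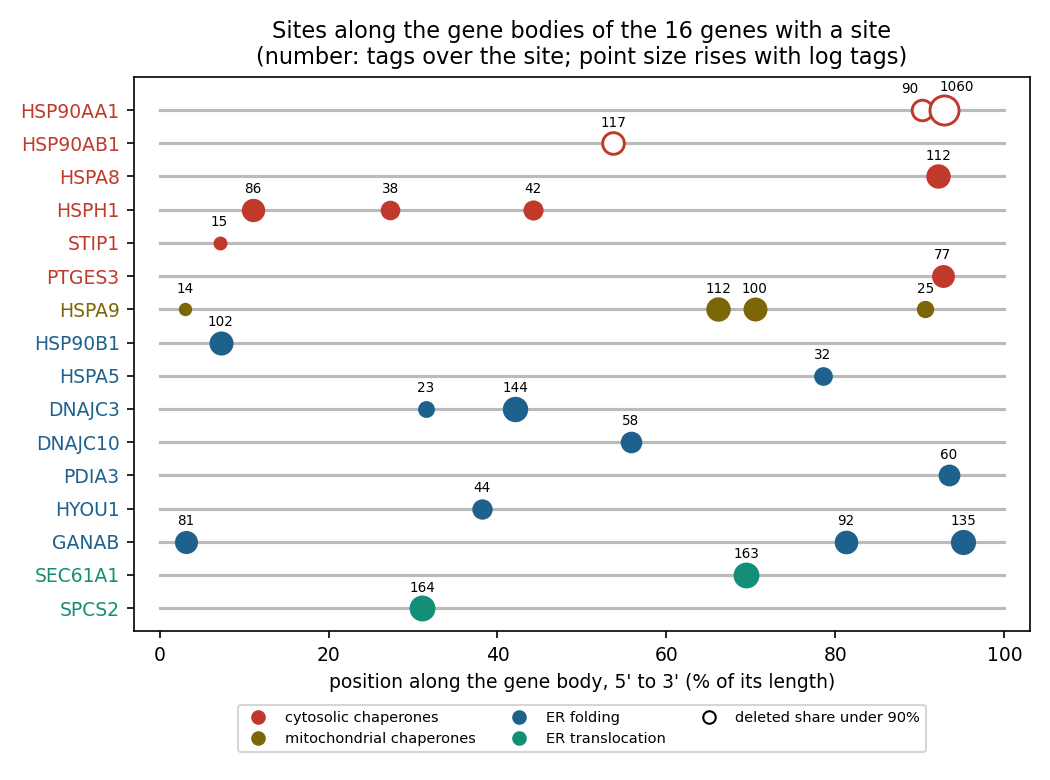
The 25 sites along the 16 gene bodies, scaled from the 5′ to the 3′ end as read on the site's strand (percent of body length), with the number of tags over each site; point area rises with the logarithm of that number and open points mark a deleted share under 90%. Sites stand at 7.11% to 93.4% of the body in genes with 1 site, and the open points are those of HSP90AA1 and HSP90AB1.

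Sites followed the strand of the gene. All 24 sites in members with a known strand were on that strand; the strand of PDIA3 was not given. The same was true of 96.6% of the 1944 sites that lie in 1 protein-coding gene of known strand and no other gene. Of the 25 sites, 4 (16%) lay in the first and 7 (28%) in the last 10% of the body, against 11.6% and 12.1% of all sites in protein-coding genes, with a site counted once for each gene that covers it. Within 2000 nt of the 3′ end lay 5 of the 25 (20%), against 7.51%; the members with a site had a median body of 21.7 kb, and all protein-coding genes with a site 61.7 kb. These differences in position were not tested. Both HSP90AA1 sites count among the 7 in the last 10%, though they lay 548 and 2102 nt downstream of the inner start of that gene. No site fell in a window from 250 bases before to 50 bases after any annotated start of the 40 members whose starts are in the RefSeq table used. Such windows are short beside member bodies with a median of 17.4 kb, so this was not read as avoidance of starts. The exon or intron at each site, and the deleted base, were not analysed here, since no genome sequence or exon annotation was used.

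Sites were also counted in 115 other genes of the same pathways, of which 19 (16.5%) held 23 sites. The counts were 6 of 42 for other cytosolic chaperones, 2 of 5 for other mitochondrial chaperones, 5 of 32 for other ER folding and quality control genes, 3 of 20 for other translocation and glycosylation genes, and 3 of 11 for the COPII coat, which buds vesicles from the ER. The sensors and factors of the unfolded protein response (ERN1, ATF6, EIF2AK3, ATF4 and DDIT3) had 0 of 5. By body length, a site was found in 1 of 22 of the other genes under 10 kb (4.55%, against 3.08% of all protein-coding genes of that length) and in 5 of 40 between 10 and 30 kb (12.5%, against 7.2%). It was found in 7 of 43 between 30 and 100 kb (16.3%, against 13.6%) and in 6 of 10 at 100 kb or more (60%, against 21%). No test of the difference from the members was made, since the members were chosen with earlier results known.

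**Figure D4:**
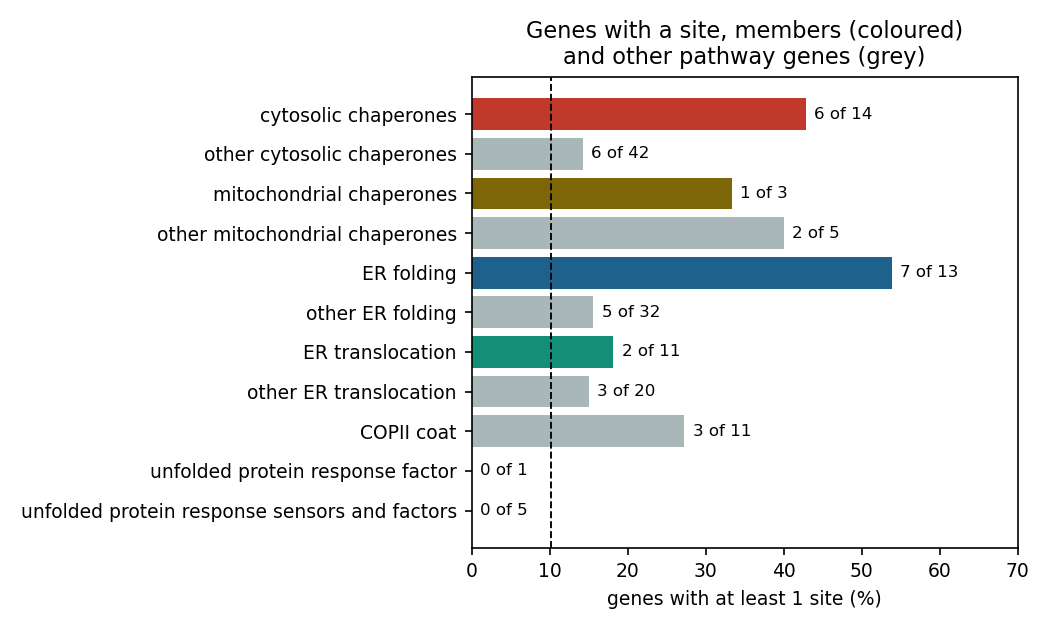
Percent of genes with at least 1 site in each class of members (coloured) and of other pathway genes (grey), with counts beside the bars; the dashed line is the share of all protein-coding genes, 10.1%. ER folding members have the highest share, 53.8%, and the unfolded protein response genes have none.

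Of the 23 sites in these other genes, 17 (73.9%) had the deletion in every tag, near the 77.3% of all sites in protein-coding genes. All 15 sites in genes of known strand were on that strand, and the rest could not be assigned to a strand of the gene. CCT6A, a TRiC subunit, had 14 of 14 and 64 of 64 tags deleted, and DNAJB6, a J-domain chaperone, 34 of 35 and 58 of 58. FKBP5, an HSP90 cochaperone known as an androgen-responsive gene, had 101 of 101, and TRAP1, the mitochondrial HSP90, 72 of 72. DNAJC1 had 196 of 199 tags deleted and PDIA5 had 160 of 167 (95.8%, interval 91.6 to 98.3). UGGT1, which re-glucosylates misfolded glycoproteins, had 121 of 121.

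Other sites lay in genes of targeting and export. SRP54 and SRPRA, of the signal recognition particle and its receptor, had 33 of 33 and 23 of 23, and STT3B, an oligosaccharyltransferase subunit, 18 of 18. The sites of SRPRA and STT3B were on the plus strand, and no strand was given for these genes. The mitochondrial J-domain protein DNAJA3 had 37 of 37. Among the COPII genes, SEC24D had 132 of 132 and 47 of 47, SEC24C 15 of 16 and 118 of 118, and SEC23A 64 of 64.

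Shares under 90% were found at 2 of the 23 sites of the other pathway genes; another 4 were between 90% and 100%. PPIB, the ER cyclophilin B, had 90 of 114 tags deleted (78.9%, interval 70.3 to 86.0), at a position that the body of SNX22 also covers; the site is on the minus strand and SNX22 starts on the plus strand. CCT4, another TRiC subunit, had 72 of 81 (88.9%, interval 80.0 to 94.8), where the body of LOC124907773 overlaps. TRAP1, unlike its cytosolic relatives HSP90AA1 and HSP90AB1, had no undeleted tag (interval 95.01 to 100).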

How the data were processed

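The file's name states a pool of libraries, unique tags, deletions only, and crosslink-induced mutation site analysis with an FDR limit of 10%. Every position carries the authors' deposited count of deleted tags, taken as it stands, with no normalization. A second deposited text field names the position and repeats that count beside the total of tags there. Tools listed in the submitters' processing notes, without roles, are BWA 0.7.17, UMI-tools, cutadapt and SAMtools, with build hg38. Depth per library is unknown. Positions, 1-based, were overlapped with 58956 nuclear RefSeq gene bodies (GRCh38.p14) on either strand; all 42 members and 115 other pathway genes matched by symbol. Gene strands and starts came from the RefSeq promoter table. Members and gene lists were chosen with earlier results of these data known. Every member with a site was named, and up to 4 genes of each other list with the most sites. Alternatives covered the threshold, merging, deleted share, gene ends, overlaps and strand. The overlap step, tested on simulated data, recovered 100% of sites planted in 200 of 19866 genes. Python 3.11.15, pandas 2.3.3, numpy 2.4.6, scipy 1.17.1 and matplotlib 3.10.9 were used.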

Additional observations from a re-analysis of the deposited data

How the results depend on the processing

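No paired analysis was possible because the 2 libraries were deposited as 1 pooled list; for the same reason no library could be left out. Merging sites within 50 nt, widening gene bodies by 1 kb and requiring the strand of the gene left 16 members with a site. Merging had nothing to join inside a member, where neighbouring sites lay at least 932 nt apart. Widening could only add members, and PDIA3, of unknown strand, was kept when the strand was required. Leaving out overlapping genes left 15, with SEC61A1 lost. Across these settings, 8.95% to 10.5% of protein-coding genes had a site. Above the median number of deleted tags 12 members had a site, against 5.66% of protein-coding genes, and the deleted share of the cytosolic class was 28.5%. With a share under 0.9 and with a share under 0.4, the members with a site fell to 2 (4.76%), against 0.73% and 0.216% of protein-coding genes. The cytosolic genes fell to 2 and the ER genes to 0 (no ER share or coverage can then be given), and the cytosolic share was 11.4%. The other pathway genes were 2 under 0.9 and 0 under 0.4. These settings keep 222 and 79 of the 2960 sites by construction. Leaving out small RNA genes (16 members, against 10.1% of protein-coding genes) and leaving out the deepest cytosolic site (cytosolic share 70.9%) were chosen after seeing the data. Because 13 deleted tags were the fewest listed, a share of 14.4% is the lowest that 90 tags could show.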

Other observations

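RefSeq names 120 pseudogenes after the members, by symbol, and 2 of them held a site. STIP1P3, on the X chromosome, had 178 of 179 tags deleted (99.4%, 95% Clopper-Pearson interval 96.9 to 99.99), more tags than the 15 over the site in STIP1 itself. HSP90B2P, on chromosome 15, had 44 of 44 (interval 92.0 to 100); it lies inside the body of LRRC28, which starts on the same strand as the site. The many pseudogenes of HSPA8, HSPD1 and HSPE1 held no site. The sources used here do not say how tags that match a gene and its copies were treated.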
